A study of Mus musculus with 4 samples.

Results

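The glycolytic isozymes were followed in the immortalized mouse Schwann cell line IMS32 across 4 culture conditions. The set consisted of 10 genes, Hk1, Hk2, Pfkl, Pfkm, Pfkp, Aldoa, Aldoc, Eno1, Eno2 and Pkm, and its members were the probes for mouse transcripts that carry one of these names in the array design. There were 14 such probes on 23 spots per array, of 39429 probes and 31093 gene names in all. The cells had been kept for 1 h in DMEM with serum containing 5 or 15 mM glucose, with or without 1 mM pyruvate. The groups at normal glucose are termed [Glc 5 mM/Pyr (+)] where pyruvate was present and [Glc 5 mM/Pyr (−)] where it was left out, and those at high glucose are termed [Glc 15 mM/Pyr (+)] and, when starved of pyruvate, [Glc 15 mM/Pyr (−)]. Each condition was measured on 1 one-colour array, so none of the differences is checked by replicates, and IMS32 is 1 line.

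Glycolysis splits glucose into pyruvate in the cytosol. Several of its steps can be carried out by more than 1 enzyme, and these isozymes come from separate genes with different tissue patterns. Hexokinases (Hk1, Hk2) trap glucose in the cell as glucose 6-phosphate. Phosphofructokinase, assembled from liver, muscle and platelet type subunits (Pfkl, Pfkm, Pfkp), commits the sugar to glycolysis. Aldolases (Aldoa, Aldoc) split the 6-carbon sugar, enolases (Eno1, Eno2) form phosphoenolpyruvate, and pyruvate kinase (Pkm) forms pyruvate and ATP. Schwann cells are known to use glycolysis to supply themselves and the axons they ensheathe.

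A probe's level is given either as its background-corrected intensity, in arbitrary units, or as the log2 intensity relative to the 75th percentile of the array. This percentile was 1788, 1740, 1597 and 1632 on the 4 arrays in the order above, which is kept for every series of 4 values, so that unscaled intensities ran lower at 15 mM glucose. All 14 probes were well above background on all 4 arrays and no spot was saturated. Probes of different genes bind with different strength, and levels were therefore compared between arrays and never between probes. The SD of a difference between single spots of 1 probe on separate arrays, taken from 281 probes printed 10 times, was 0.24, 0.10 and 0.08 on the log2 scale in the dimmest, middle and brightest of 3 equal groups of probes by signal. This SD (called the spot SD) leaves out the variation between cultures. Of the Schwann cell markers, S100b, Sox10, Ngfr, Gap43 and Ncam1 were well above background on all 4 arrays with a probe above 500 units, whereas Mbp, Erbb3 and Gfap were also well above background but had no probe above 500 units.

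The probes that carry the finding are shown by the last 30 of their 60 bases, because the sequence sets which transcripts a spot can bind. Capitals mark AATAAA, the usual polyadenylation signal.
Hk2: agaactagttgaattaaccatgtgatgtta
Pfkm: gatttcagctactcaagagttttcctaaaa
Aldoa: atcactcttgctgctgccctcgtgtgcggt
Aldoc: gagtacatagcaAATAAAtgagagcaaaac
Eno2: aatgaccaccaccattaaagtctgaatcac
AATAAA was found in 5 of the 14 probes (35.7%) and in 12.6% of all probes on the array. The longest run of bases shared by the probes of paired isozymes was 6 for Aldoa and Aldoc, 8 for Hk1 and Hk2 and 5 for Eno1 and Eno2. Probes were compared with other probes and not with transcripts, so whether a probe also binds the other isozyme was not tested.

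Within the hexokinases, Hk2 and 1 of the 3 Hk1 probes were slightly lower at 15 mM than at 5 mM glucose when pyruvate was absent, and the other Hk1 probes differed by less than the spot SD. Hk2, the inducible hexokinase, was read by 1 probe at chr6:82675056-82675115 (mm9). Its log2 level was 0.22 with and 0.17 without pyruvate at 5 mM glucose, and 0.18 with and 0.04 without pyruvate at 15 mM. The last of these was the lowest. The difference 15 minus 5 mM glucose was -0.04 with pyruvate, which lies within the spot SD, and -0.13 without pyruvate, a fold of 0.915, just outside it. As in any RNA pool, fewer cells that express a gene and less of its RNA per cell cannot be told apart. Both glucose differences were negative under all 8 alternative settings. Those that choose among probes only repeat the value of Hk2, which has 1 probe.

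Hk1, the widely expressed hexokinase, was read by 3 probes, whose values are kept apart because 1 of them may not read Hk1 alone. The probe at chr10:61731856-61731915 had log2 levels of 3.90, 3.91, 3.87 and 3.76 in the 4 conditions. Its glucose difference was -0.03 with pyruvate, within the spot SD of 0.08, and -0.15 without, outside it, and as with Hk2 the lowest of the 4 arrays was [Glc 15 mM/Pyr (−)]. The probe at chr10:61732717-61732776 had levels between -1.76 and -1.68 and glucose differences of 0.00 and -0.02, both within the spot SD. The remaining probe was placed by the array design at chr5:22118404-22118463, although RefSeq has Hk1 on chromosome 10. It aligned with a probe named for the pseudogene Rpl17-ps8 over 51 bases with 49 identical, and with both probes named Rpl17, which encodes a ribosomal protein, over 33 and 28 bases. Its glucose differences were 0.00 and 0.00. The mean of all 3 Hk1 probes differed by -0.01 with pyruvate and -0.06 without, and the sign of each turned in at least 1 alternative setting.

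None of the 3 phosphofructokinase genes had a glucose difference larger than the spot SD. That SD holds for single spots, whereas Pfkm is a mean over 10 spots, and its own SE is given below. Pfkm was printed 10 times on each array at chr15:97962713-97962772, which gives it the best technical precision of the set. The lowest, median and highest spot had intensities of 3167, 3377 and 3744 with pyruvate at 5 mM glucose and of 3160, 3395 and 3751 without. At 15 mM glucose they were 2730, 3108 and 3265 with pyruvate and 2866, 3053 and 3316 without. After scaling, the spots of the 4 arrays overlapped. The glucose difference was 0.00 ± 0.035 (SE over spots) with pyruvate and -0.07 ± 0.033 without, where n is 10 spots on each of 2 arrays and the SE covers the error within an array alone.

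**Figure D1:**
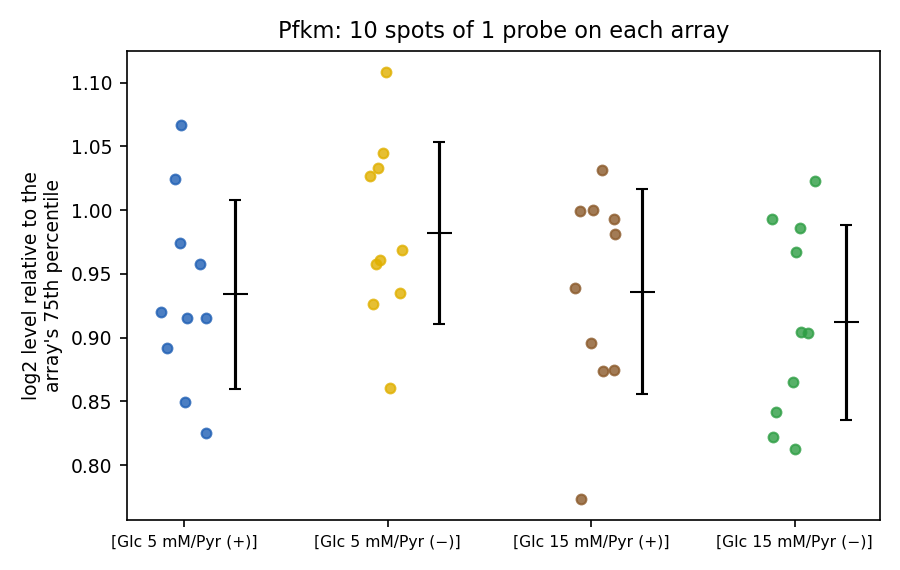
Log2 level of the 10 Pfkm spots on each array, relative to the 75th percentile of that array (vertical axis), for the 4 conditions (horizontal axis); each point is 1 spot, and the black mark and bar are the mean and SD over the 10 spots. The spots of the 4 conditions overlap, and the array means lie between 0.91 and 0.98.

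Pfkl, the liver type subunit, had intensities of 1273, 1352, 1118 and 1237 in the same order of conditions at chr10:77450926-77450985. Its glucose differences of -0.03 with and -0.04 without pyruvate lay within the spot SD. Pfkl differed more by pyruvate than by glucose, as its levels of -0.36 and -0.40 without pyruvate were higher than those of -0.49 and -0.52 with it. Pfkp, the platelet type subunit, had a probe with no position in the array design at 260 to 291 units and a second one at chr13:6579124-6579183 at 54 to 70 units, which falls in the dimmest group. The means of both probes differed by 0.05 with pyruvate and -0.02 without.

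**Figure D2:**
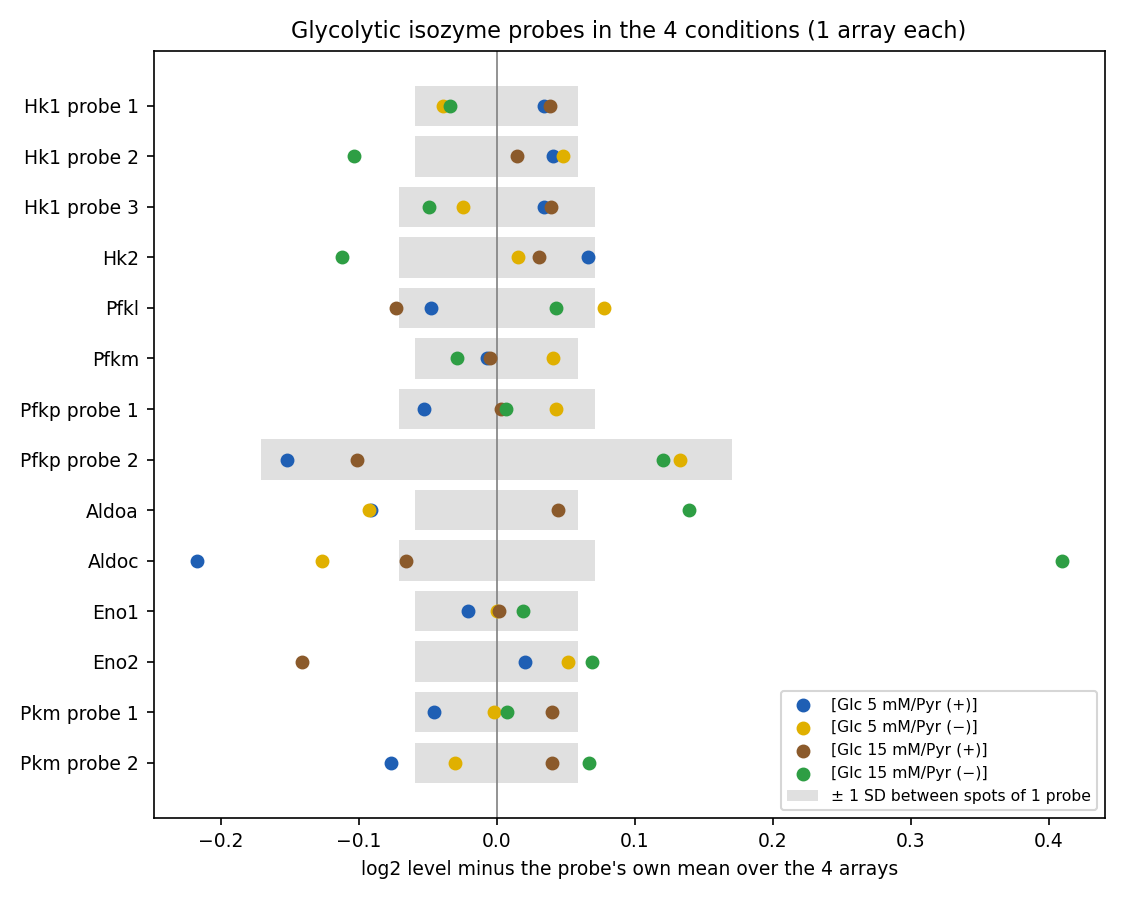
Log2 level of each of the 14 isozyme probes on the 4 arrays minus the mean of that probe over the arrays (horizontal axis), 1 row per probe; coloured points are the conditions and grey bars ± 1 SD between spots of 1 probe in its signal group. Probe 1 of Hk1 and probe 1 of Pkm are those placed on chromosome 5. Aldoc in [Glc 15 mM/Pyr (−)] is farthest from its mean, with a range over the arrays of 0.63, whereas Eno1 has a range of 0.04.

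Both aldolase genes were higher at 15 mM than at 5 mM glucose, with and without pyruvate, and Aldoc without pyruvate gave the largest glucose difference among the members. Aldoc encodes aldolase C, the isozyme known from brain, and was read by 1 probe at chr11:78140198-78140257. Its intensity was 728 with and 754 without pyruvate at 5 mM glucose, and 722 with and 1025 without pyruvate at 15 mM, or -1.30, -1.21, -1.15 and -0.67 as log2 levels. The [Glc 15 mM/Pyr (−)] array stood apart from the other 3. The glucose difference of Aldoc was 0.54 without pyruvate, a fold of 1.45, and 0.15 with pyruvate, a fold of 1.11, against a spot SD of 0.10. The 2 glucose differences thus differed by 0.38, which with 1 array per condition was not tested. Among the 9196 probes of the middle group by signal, 1.25% had a higher glucose difference than Aldoc without pyruvate and 9.05% with pyruvate.

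Aldoa, the main aldolase of muscle and most other tissues, had intensities of 187120, 181900, 183716 and 200364 in the same order at chr7:133938816-133938875. As log2 levels these were 6.71, 6.71, 6.85 and 6.94, so that both arrays at 15 mM glucose were above both at 5 mM. The glucose difference was 0.14 with and 0.23 without pyruvate, both larger than the spot SD of 0.08. Bright probes as a class shifted the same way, with a median of 0.04 with and 0.08 without pyruvate over 9197 probes in the brightest group. When the dependence on signal was removed, the difference of Aldoa with pyruvate was -0.01 with quantile normalization and 0.02 with cyclic loess, and that without pyruvate was 0.15 and 0.10.

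With pyruvate present, Eno2 was lower at 15 mM glucose, and Eno1 differed by less than the spot SD. Eno1, the enolase of most tissues, had log2 levels of 6.05, 6.07, 6.08 and 6.09, the narrowest range of the 14 probes, and glucose differences of 0.02 and 0.02. Quantile normalization gave -0.09 and cyclic loess -0.08 for the difference with pyruvate, and -0.09 and -0.10 for that without. Its probe was placed at chr2:80678866-80678925, whereas RefSeq has Eno1 on chromosome 4, and 56 of 57 aligned bases were identical to those of a probe named Eno1b at chr2:80678869-80678928. That probe had glucose differences of 0.07 and 0.04. Signal from Eno1 and from its near copy Eno1b cannot be told apart here.

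Eno2, the enolase known from neurons, was read at chr6:124710388-124710447. Its intensity was 3199 with and 3181 without pyruvate at 5 mM glucose, and 2556 with and 3020 without pyruvate at 15 mM. Only the [Glc 15 mM/Pyr (+)] array was low. The glucose difference was -0.16 with pyruvate, larger than the spot SD but inside the central 95% of the brightest group, whose lower limit was -0.20, and it was 0.02 without. Of 7 neuronal markers, 5 were well above background on all 4 arrays, the exceptions being Rbfox3 and Nefm. The markers did not move together with glucose. The 5 measured with pyruvate had a median difference of 0.08. For the 6 measured without pyruvate, which include 1 Rbfox3 probe at 1.17, it was 0.14. Values ran from Snap25 (5470 to 9340 units), lower by 0.46 and 0.52, to Nefl, higher by 0.61 and 1.22 but dim at 24.5 to 53.7 units. The part of these markers in the Eno2 difference was not tested.

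Pkm, the pyruvate kinase gene of most tissues, had 2 bright probes. The probe at chr9:59526867-59526926 had log2 levels of 5.09, 5.14, 5.21 and 5.24, and glucose differences of 0.12 with and 0.10 without pyruvate. The probe placed at chr5:22229851-22229910, although RefSeq has Pkm on chromosome 9, had differences of 0.09 and 0.01. The mean of both was 0.10 with and 0.05 without pyruvate, but quantile normalization gave 0.00 and -0.06.

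**Figure D3:**
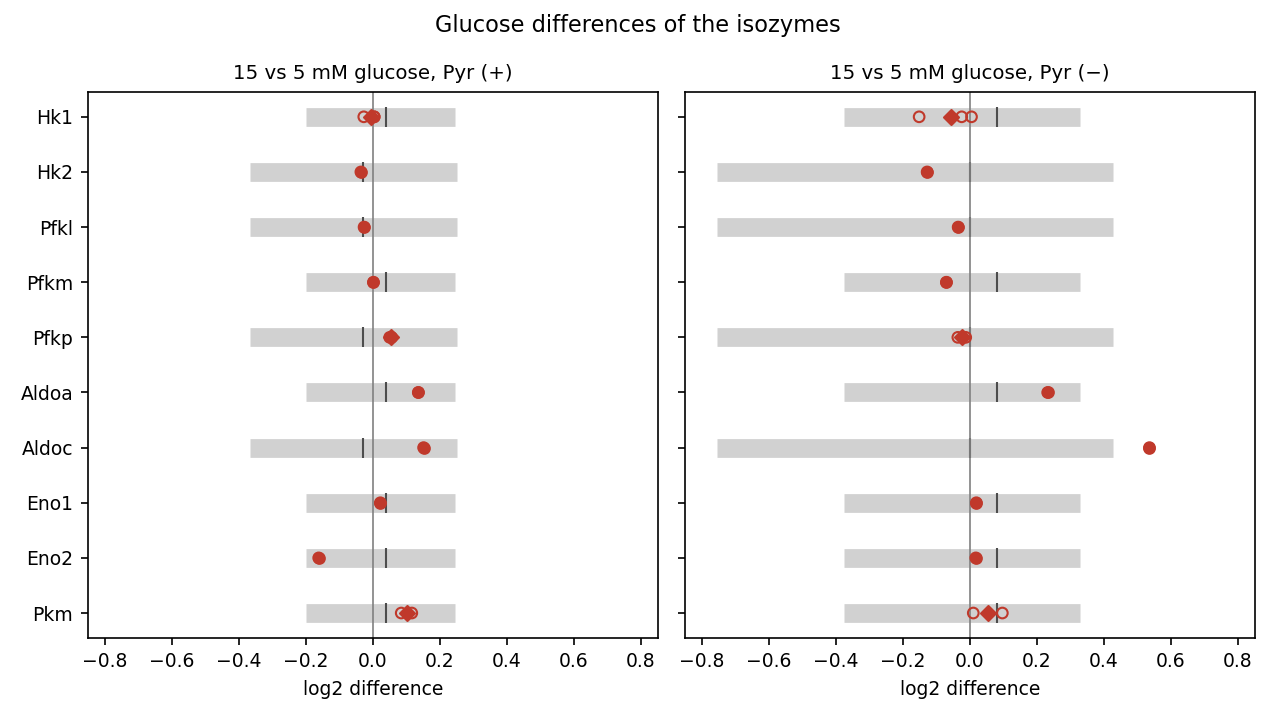
Log2 difference 15 minus 5 mM glucose (horizontal axis) of each isozyme gene, with pyruvate (left) and without (right); filled symbols are gene values (diamonds are means of several probes), open circles single probes, grey bars the central 95% of all probes in the gene's signal group (for Pfkp that of its first probe) and ticks their median. Aldoc without pyruvate, at 0.54, is the gene value outside its grey bar.

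Counted over the set, 0 of 14 probes reached a 2-fold glucose difference with pyruvate (0.968% of all probes measured on both arrays) and 0 without (2.4%). A 1.5-fold difference was also reached by 0 of 14, against 3.12% and 7.28% of all probes. At 1.3-fold, a threshold added after the values were seen, the count was 0 with pyruvate (8.35% of all probes) and 1 without (15.5%), namely Aldoc. The median over the 10 genes was 0.01 with pyruvate and 0.00 without, where the medians over 22240 and 22239 genes measured were -0.02 and 0.03. The median of the 10 genes thus lay close to that of all genes. Without pyruvate, Aldoc at 0.54 had the largest difference of the 10. This value was inside the central 95% of all genes measured, which ran from -0.79 to 0.64. It was above the upper limit of 0.43 for the central 95% of probes in the middle group by signal.

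An additive fit of glucose and pyruvate with limma, over 31274 probes and with 1 residual degree of freedom, called 0 probes for glucose after Benjamini-Hochberg adjustment at 0.05 (0% of all probes; 1495 had an unadjusted p below 0.05). It also called 0 for pyruvate, where 1077 had an unadjusted p below 0.05. In this fit the glucose effect of Aldoc was 0.34 ± 0.15 (SE; limma adjusted p = 0.772) and that of Aldoa was 0.18 ± 0.09 (limma adjusted p = 0.772). The fit takes any dependence of the glucose effect on pyruvate as error, which for Aldoc was the 0.38 given above. A p that misses the threshold does not show that the isozymes did not change.

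Isozymes of the same step share the scaling of the arrays, and a single scaling factor therefore cancels when 1 gene's difference is subtracted from the other's. Aldoc exceeded Aldoa by 0.30 in the glucose difference without pyruvate, against an error of 0.13 (SD between spots), and by 0.02 with pyruvate. Quantile normalization and cyclic loess raised the latter to 0.20 and 0.16. Eno2 fell short of Eno1, with a difference of -0.18 (error 0.12) with pyruvate and 0.00 without, but quantile normalization and cyclic loess brought the former to -0.07 and -0.09, inside the error. Hk2 minus Hk1 was -0.03 and -0.07, Pfkm minus Pfkl 0.03 and -0.04, and Pfkp minus Pfkl 0.08 and 0.01, and these 6 values were all smaller than their errors of 0.13 to 0.14. These errors hold for single spots of 1 probe per gene, whereas Hk1 and Pfkp are means over probes and Pfkm is a mean over spots. The Eno1 value comes from the probe on chromosome 2, whose signal cannot be told apart from Eno1b. The Hk1 mean includes the probe placed on chromosome 5. With Hk1 probes on chromosome 10 only, Hk2 minus Hk1 was -0.02 with and -0.04 without pyruvate.

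**Figure D4:**
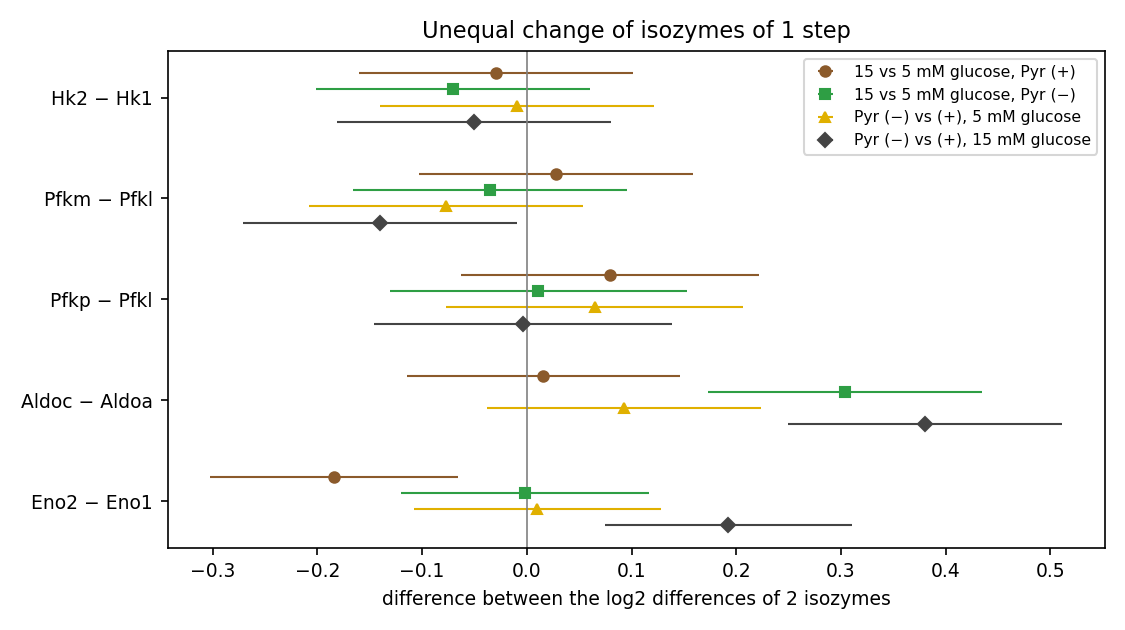
Difference between the log2 differences of isozymes of 1 step (horizontal axis) for 5 pairs (rows) in the 4 comparisons (symbols); bars are ± 1 SD of the error between spots. Aldoc minus Aldoa is 0.30 for glucose without pyruvate and 0.38 for pyruvate at 15 mM glucose, and the bars of both leave out 0. So do those of Eno2 minus Eno1 for glucose with pyruvate (-0.18) and for pyruvate at 15 mM glucose (0.19). The bar of Pfkm minus Pfkl for pyruvate at 15 mM glucose (-0.14) also leaves out 0. The Eno1 probe may read Eno1b, and Hk1 is the mean of its probes including that placed on chromosome 5.

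The comparisons by pyruvate use the same 4 arrays and are not independent of those by glucose. For Pyr (−) minus Pyr (+), 0 of 14 probes reached 2-fold at 5 mM glucose (1.17% of all probes) and 0 at 15 mM (2.1%). At 1.5-fold the counts were 0 (3.2%) and 0 (6.54%), and at 1.3-fold they were 0 (7.34%) and 1 (13.7%), again Aldoc. Aldoc differed by 0.09 at 5 mM and 0.48 at 15 mM glucose, and Eno2 by 0.03 and 0.21. Pfkl differed by 0.13 and 0.12, above the spot SD of 0.10 at both glucose concentrations. Hk2 differed by -0.05 and -0.14, and its level was lower without pyruvate at both glucose concentrations. The second Pfkp probe was at 59 and 54 units with and at 70 and 65 without pyruvate, a difference of 0.28 and 0.22 against a spot SD of 0.24 in the dimmest group. The first Pfkp probe differed by 0.10 and 0.00. Aldoc exceeded Aldoa by 0.09 at 5 mM and 0.38 at 15 mM glucose. Eno2 minus Eno1 was 0.01 and 0.19 (error 0.12), and Pfkm minus Pfkl was -0.08 and -0.14 (error 0.13).

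The choice of scaling mattered most for the direction of small differences. Scaling to the spike-in probes moved the median of all probes by -0.30 for glucose with pyruvate and by -0.15 without, so that Aldoc differed by -0.15 and 0.38 on that scale. Relative to the median of all probes, a measure that is the same in both scalings by construction, Aldoc was higher by 0.17 and 0.50. Among the 8 alternatives, the Aldoc difference without pyruvate ranged from 0.38 to 0.55 and that of Eno2 with pyruvate from -0.46 to -0.16. Each of these genes has 1 probe, so the alternatives that choose among probes only repeat its reported value.

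**Figure D5:**
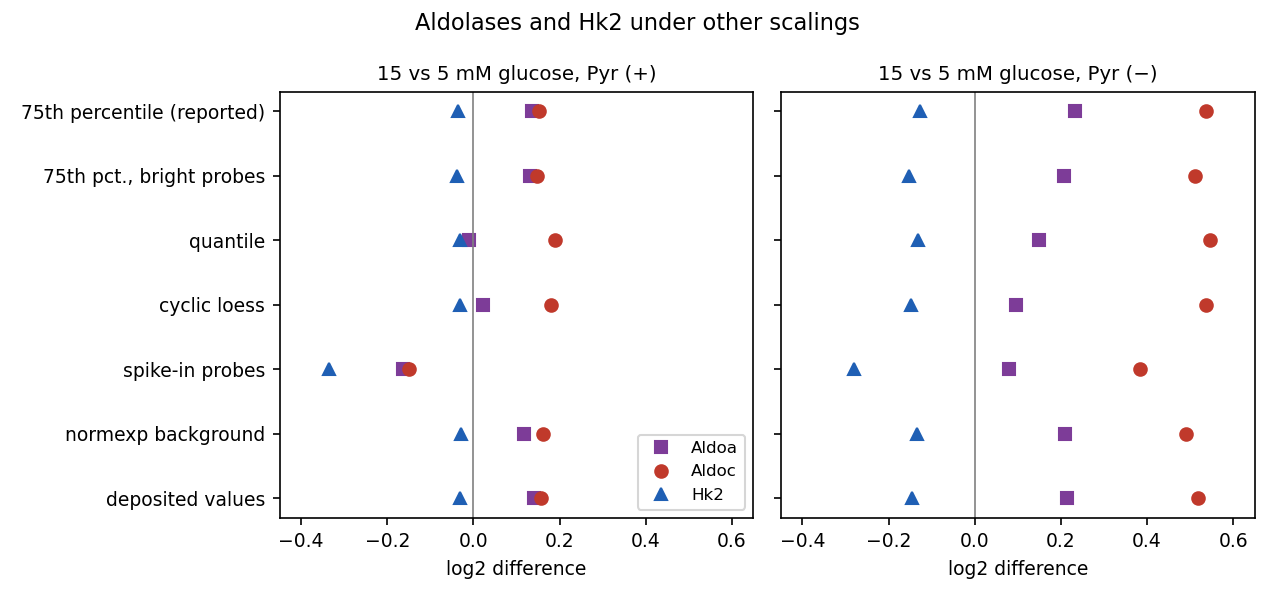
Log2 difference 15 minus 5 mM glucose (horizontal axis) of Aldoa, Aldoc and Hk2 under 7 ways of scaling (rows), with pyruvate (left) and without (right); each symbol is 1 gene with 1 array per condition and has no error bar. Aldoc without pyruvate stays between 0.38 and 0.55, whereas Aldoa with pyruvate goes to -0.01 with quantile normalization and -0.16 with spike-in scaling.

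The other enzymes of the pathway, a list of 19 genes that includes Gapdh, Pgk1, Tpi1 and the lactate dehydrogenases, gave the setting for these values. Of the 18 measured on both arrays with pyruvate, 11 were higher at 15 mM glucose, with a median of 0.07. Of the 17 measured without pyruvate, 14 were higher, with a median of 0.14. Of all 22239 genes measured without pyruvate 12498 were higher, and of the 9197 brightest probes 6348, with a median of 0.08. With pyruvate, 9870 of 22240 genes and 5999 of the 9197 brightest probes were higher. Among those measured on both arrays, 0 reached 2-fold. The largest differences came from dim probes, namely Pklr, the liver and red blood cell pyruvate kinase, at -0.48 with pyruvate (35 to 55 units), and Hkdc1, a hexokinase-like enzyme, at 0.52 without (22 to 37 units). A probe for Ldhc, the testis lactate dehydrogenase, was well above background only in [Glc 15 mM/Pyr (−)], at 82 units, which makes it at least 8.86-fold higher there than in [Glc 5 mM/Pyr (−)]. A second Ldhc probe, at 9.56 to 11.7 units, was well above background only on the 2 arrays with pyruvate. In [Glc 15 mM/Pyr (−)] it was at 10.3 units and not well above background. This second probe lay at the limit of detection, so it does not check the first, whose value rests on 1 probe on 1 array. The near copies of the aldolases, Aldoart1 and Aldoart2, were not well above background on any array and at 21.6 to 27.5 units, respectively.

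Promoters were read from RefSeq (GRCm38.p6), over 250 bases before to 50 after each start, to show where the set carries the letters ACGTG, the core of the sites of hypoxia-inducible factors, which are known regulators of glycolytic genes. Both strands were searched. ACGTG was found in 8 of the 20 windows of the set, from 6 of the 10 genes (Hk1, Hk2, Pfkm, Aldoa, Aldoc and Pkm), and in 19.6% of all 32851 windows. CACGTG, which contains ACGTG, was found in 1 of the 20 windows, for Pfkm, and in 7.15% of all windows. For 5 of the genes, 1 match each is shown on the strand of the gene, with the matched letters (ACGTG or its reverse complement CACGT) in capitals.
Hk2, chr6:82774489-82774518: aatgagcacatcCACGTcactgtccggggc
Pfkm, chr15:98092441-98092470: aattaagtatgcCACGTgaagtaagtaatt
Aldoa, chr7:126799363-126799392: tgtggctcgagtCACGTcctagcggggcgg
Aldoc, chr11:78323088-78323117: cccccagggagtCACGTagctctgcggcaa
Pkm, chr9:59657140-59657169: ctccgatccggtCACGTccgcgccgcagca
The matched letters begin 52 bases before the start in Hk2, 136 in Pfkm, 126 in Aldoa and 75 in Pkm, whereas that of Aldoc begins at base 28 after the start. The windows of Pfkl, Pfkp, Eno1 and Eno2 held no match. Aldoc and Hk2, whose glucose differences without pyruvate were 0.54 and -0.13, both carried the letters.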

How the data were processed

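IMS32 cells in 4 conditions were measured on 1 one-colour Agilent array each, labelled with Cy3 and placed on 1 slide. The authors deposited scanner output of Agilent Feature Extraction 11.5.1.1, whose processed signal is a background-corrected intensity per spot. They also deposited a table that is a ratio of this intensity to 1 constant per array, close to its 75th percentile, and all 44397 features of each array matched within 1e-06. Control and outlier spots were left out, spots of 1 probe averaged, and each log2 intensity reduced by that of the 75th percentile among the remaining probes. The value of a gene is the mean over its probes. Depth is given by signal over background: 28470 to 30344 probes per array were well above it, and the number of arrays limits the precision.

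Differences between single arrays were not tested. The additive fit used limma 3.58.1 (R 4.3.3) on probes that exceeded background clearly on 1 or more arrays. In a simulation that gave every probe the same noise, pooled over all probes of these arrays, it missed most probes given a 2-fold change. With a smaller noise it called all of them. Since real noise differs by signal, this does not give its power for any 1 probe. Probe alignments used blastn 2.17.0. The rule named all 10 members, near copies, and the largest or 2-fold changed genes among the other enzymes. Snap25, Nefl and the second Ldhc probe were chosen after their values were seen. Members and lists were chosen with earlier results of these data known. Marker lists for fibroblasts (5 of 6 genes well above background on all 4 arrays, Lum being the exception), macrophages (5 of 5), endothelium (2 of 4) and muscle (2 of 5) were also read, and some Schwann cell markers are not reported here. Positions of probes are those of the array design (mm9). Alternatives were 4 scalings, normexp with an offset of 50, the deposited ratio, the brightest probe, filters, thresholds, an intensity trend and, added after seeing the data, a 1.3-fold threshold and the probes placed on the gene's own chromosome.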

Additional observations from a re-analysis of the deposited data

Results flagged for a closer look

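With 1 array per condition, a gene was listed here when the same comparison had opposite signs under the other 2 conditions, and none of these differences was tested. The glucose difference without pyruvate minus that with pyruvate was 0.179 for Eno2, -0.0724 for Pfkm and -0.0778 for Pfkp. The pyruvate difference at 15 mM minus that at 5 mM glucose was -0.0724 for Pfkm, which is the same quantity, 0.0961 for Aldoa and -0.0474 for Pkm. Small values underlie the opposite signs. They were 0.02 for Eno2 and -0.02 for Pfkp (glucose without pyruvate) and 0.002 for Pfkm (glucose with pyruvate). For pyruvate they were -0.002 for Aldoa at 5 mM and -0.002 for Pkm at 15 mM glucose. The sign of each of these turned in at least 1 alternative setting.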

How the results depend on the processing

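Of 540 recalculated values, 474 moved by less than the error between spots or, for counts, by less than 1.5 times. Part of these 474 could not move, so the tally overstates stability. A gene with 1 probe gets the same value, or none, from the brightest probe and from probes on its own chromosome. Scaling by 1 factor per array cancels in the differences between isozymes. Spike-in scaling moved the median of the set to -0.29 for glucose with pyruvate, -0.16 for glucose without pyruvate and -0.13 for pyruvate at 5 mM glucose. Aldoc minus Aldoa was 0.20 with quantile normalization and 0.16 with cyclic loess for glucose with pyruvate, and 0.44 with cyclic loess for glucose without. Pfkp minus Pfkl was -0.15 with normexp for pyruvate at 15 mM glucose. The count of isozyme probes at 1.3-fold was 1 for glucose without pyruvate and 1 for pyruvate at 15 mM glucose. The additive fit called 2 probes for pyruvate with normexp and 0 under the other settings.

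Counts of all probes past 2-fold, 766 for glucose with pyruvate, 1320 without, 821 for pyruvate at 5 mM and 1236 at 15 mM glucose among probes detected on 1 or both of the arrays compared, depended on the filter. With probes well above background on all 4 arrays they were 216, 597, 231 and 542, with no filter 1621, 2752, 1648 and 2539, and at 1.5-fold 1621, 3145, 1658 and 2875. The cause of the remaining shifts was not tested. Dim probes limit Pfkp in particular. No paired analysis was possible because each condition has 1 array and the labels give no replicate numbers, and without any 1 of the arrays the additive fit has no residual degree of freedom left.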
